A study of Mus musculus with 4 samples.

Results

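Hippocampal area CA1 was dissected from mouse brain, and 10 genes that mark CA1, its neighbours and the tissue that lines the ventricles were followed on each array as a record of what the dissections held. They are the CA1 markers Wfs1, Pou3f1, Man1a and Dcn, the CA3 markers Bok and Nptx1, the dentate gyrus markers Prox1 and Calb1, and Ttr and Igfbp2, markers of choroid plexus or meninges. The members were all probe sets whose platform symbol is one of these names. This gave 11 probe sets for 10 of the 8251 genes named on the array, with 2 probe sets for Man1a and 1 for each other gene. Total RNA came from 4 CA1 samples of young male C57BL/6J mice, an inbred strain, each measured on 1 Affymetrix array. All 4 were controls that an experimenter had handled and that received no other treatment. The samples date from 1, 2, 4 and 6 h after treated mice, not analysed here, had their last shock. With 1 sample per hour, differences between hours were measured once and have no replicate to be judged against, and the number of mice behind a sample is not stated in the labels.

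The hippocampus is a chain of regions. Granule cells of the dentate gyrus send mossy fibres to the pyramidal cells of CA3, which project through the Schaffer collaterals to the pyramidal cells of CA1. Each cell type keeps its own set of transcripts, with borders sharp enough that marker genes outline the fields in tissue sections. The dentate gyrus lies folded against CA1 across the hippocampal fissure, and the choroid plexus, the epithelium that makes cerebrospinal fluid, lies in the ventricle beside the hippocampus. Its main transcript is Ttr, which neurons and glia make little of.

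Signals are the authors' scaled intensities, which can be compared between arrays for the same probe set but not between probe sets. Signals under 36.8, the 20th percentile of all values, were set to that floor before log2 was taken. A probe set was tested when its mean log2 signal reached a signal of 116.4, the 40th percentile, which 7237 of 12488 probe sets and 10 of the 11 member probe sets did. The exception was Prox1. The 2 h array stood apart from the others in control ratios and in spread. Gapdh, a control for RNA length, had a 3' over 5' ratio of 1.08 there, against 3.62 to 4.10 on the other arrays, and beta-actin had 1.72, against 2.27 to 2.93. Across tested probe sets, log2 differences that involved the 2 h array had an SD of 0.62 to 0.66, against 0.54 to 0.55 for the other pairs.

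The subfield markers measured above the filter differed by less than 2-fold between the 1 h array and each later one. The choroid plexus or meningeal markers did not: Ttr and Igfbp2 were more than 2-fold higher at 2 h than at 1 h, and Ttr was more than 2-fold lower at 4 h than at 1 h. Of the 10 tested member probe sets, 2 were at least 2-fold higher at 2 h than at 1 h, beside 6.92% of all tested probe sets, and 0 were at least 2-fold lower, beside 3.29%. At 4 h against 1 h, 0 were higher by that fold, beside 3.69%, and 1 was lower, beside 2.51%. At 6 h against 1 h, 0 were higher and 0 lower by that fold, beside 3.74% and 2.79% of all tested probe sets.

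**Figure D1:**
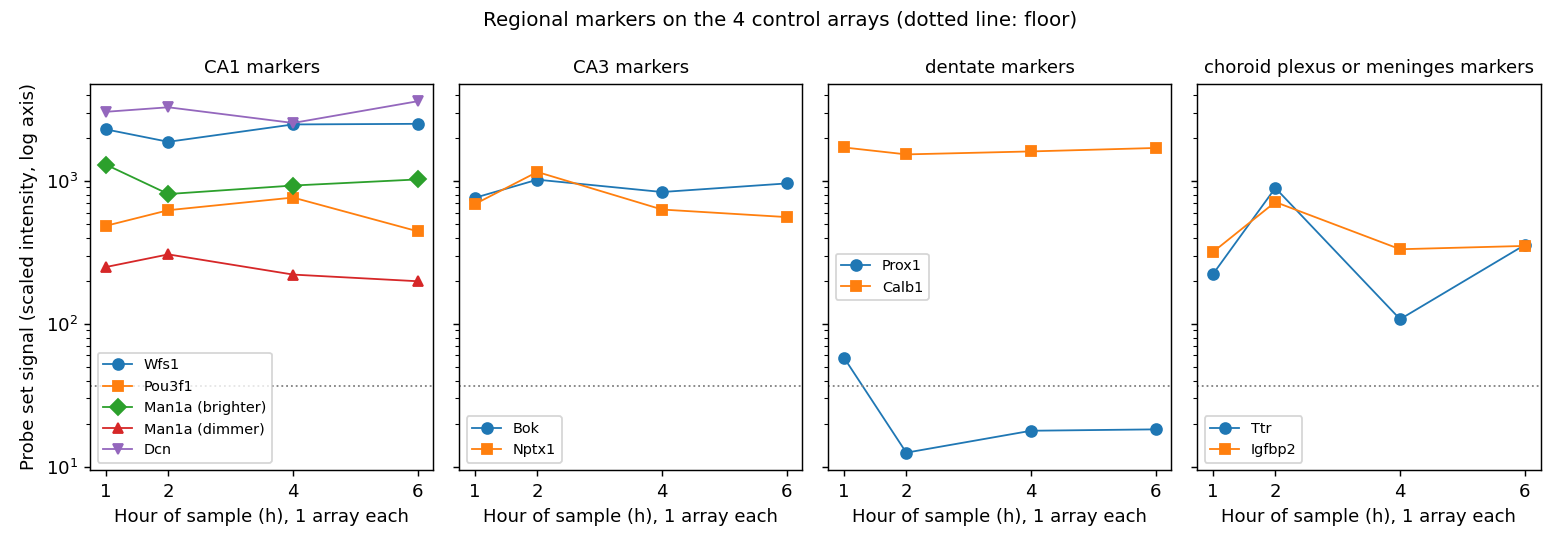
Deposited signal (log axis) of each member probe set against the hour of its sample, with 1 array per hour and 1 panel per region. The dotted line is the floor of 36.8. Ttr ranged from 107.5 to 892, Prox1 lay above the floor at 1 h only, and heights of different probe sets are not comparable.

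Among CA1 markers, Wfs1 encodes wolframin, a membrane protein of the endoplasmic reticulum, and marks the pyramidal layer of dorsal CA1. It gave signals of 2293, 1877, 2484 and 2508 at 1, 2, 4 and 6 h, a mean of 2290.5 ± 292 (SD, n = 4). The 2 h array was the lowest, and the highest signal was 1.34 times the lowest. Pou3f1, a POU-domain transcription factor of CA1 pyramidal cells, had 484, 623, 764 and 443 at 1, 2, 4 and 6 h, highest at 4 h. Its highest signal was 1.72 times its lowest, the widest of the CA1 probe sets.

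Man1a, a mannosidase that trims N-glycans in the Golgi, was measured by a pair of probe sets that did not agree at 2 h. The brighter gave 1299, 809, 927 and 1023.5 at 1, 2, 4 and 6 h, lowest at 2 h. The dimmer gave 249, 306, 221 and 198, highest at 2 h. At 2 h against 1 h their log2 differences were -0.68 and 0.29, and at 4 h against 1 h they were -0.49 and -0.18. At 6 h against 1 h, the log2 differences were -0.34 on the brighter and -0.33 on the dimmer, so the probe sets parted at 2 h and lay close at 6 h.

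Dcn encodes decorin, a small proteoglycan that binds collagen. It is listed as a CA1 marker, but fibroblasts of the meninges also make it. Its signals were 3045, 3275, 2543 and 3612 at 1, 2, 4 and 6 h, a mean of 3119 ± 449 (SD, n = 4), with the 4 h array lowest and the 6 h array highest. Its log2 difference of 0.11 at 2 h against 1 h became -0.02 when each array was centred on its median signal, which for all probe sets lay 0.12, 0.11 and 0.14 log2 above that of 1 h at 2, 4 and 6 h. All 4 CA1 genes lay above the floor on every array. Over these genes, with Man1a taken by its brighter probe set, the mean log2 deviation from each gene's 4-array mean was 0.04, -0.09, 0.04 and 0.01 at 1, 2, 4 and 6 h. In this bulk tissue, fewer cells of a type and less RNA per cell cannot be told apart.

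The CA3 markers were highest at 2 h. Nptx1, a secreted pentraxin that gathers AMPA receptors at synapses, had 688, 1154, 629.8 and 558 at 1, 2, 4 and 6 h. Its 2 h signal was 1.68 times that at 1 h, 1.83 times that at 4 h and 2.07 times that at 6 h, while the other 3 arrays lay within 1.23-fold of each other. Bok, a member of the BCL-2 family that promotes cell death, had 761, 1019.6, 835.5 and 959.7 at 1, 2, 4 and 6 h. Its 2 h signal was 1.06 times that at 6 h, so that the 2 h array led by little. The mean log2 deviation of the CA3 pair was -0.15, 0.43, -0.15 and -0.14 at 1, 2, 4 and 6 h. Of all tested probe sets, 29.1% were highest at 2 h, and 5 of the 10 tested member probe sets were: both CA3 markers, the dimmer Man1a probe set, Ttr and Igfbp2. Lowest at 2 h were 3 of the 10 (Wfs1, the brighter Man1a probe set and Calb1), beside 32% of all tested probe sets.

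Of the dentate markers, Calb1 was measured on every array and Prox1 at 1 h alone. Prox1, the homeobox factor that sets granule cell identity, had 57.9, 12.5, 17.8 and 18.2 at 1, 2, 4 and 6 h. Only the 1 h signal lay above the floor of 36.8, and by less than 2-fold, so the other 3 values have no order among themselves and no trend was tested. Calb1 encodes calbindin, a calcium buffer of mature granule cells that superficial CA1 pyramidal cells and some interneurons also make. Its signals were 1714, 1532, 1607.5 and 1699.6 at 1, 2, 4 and 6 h, a mean of 1638 ± 85.0 (SD, n = 4). All 4 lay within 1.12-fold of each other, the narrowest range of the members.

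The 2 remaining markers were the widest. Ttr encodes transthyretin, which carries thyroid hormone and, with its partner, retinol in cerebrospinal fluid. Its signals were 222, 892, 107.5 and 356 at 1, 2, 4 and 6 h. Even its nearest arrays, 6 h and 1 h, were 1.60-fold apart. The 2 h signal was 4.02 times that at 1 h, 2.50 times that at 6 h and 8.30 times that at 4 h, and the 4 h signal was 0.484 times that at 1 h. Among the 1, 4 and 6 h arrays alone, the highest Ttr signal was still 3.31 times the lowest.

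Igfbp2 binds insulin-like growth factors and is secreted by choroid plexus, meninges and astrocytes. Its signals were 317, 711, 332 and 350.3 at 1, 2, 4 and 6 h. The 2 h array stood alone, 2.24, 2.14 and 2.03 times the 1, 4 and 6 h arrays, and those 3 lay within 1.10-fold of each other. Ttr and Igfbp2 thus shared the high 2 h signal but not the differences among the other hours, where Ttr moved over 3-fold and Igfbp2 did not. They were the 2 member probe sets at least 2-fold higher at 2 h than on each other array, a pattern that 2.06% of all tested probe sets had. Both were high on the array with the lowest Gapdh 3' over 5' ratio (1.08), and the part of that difference in their signals was not tested.

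**Figure D2:**
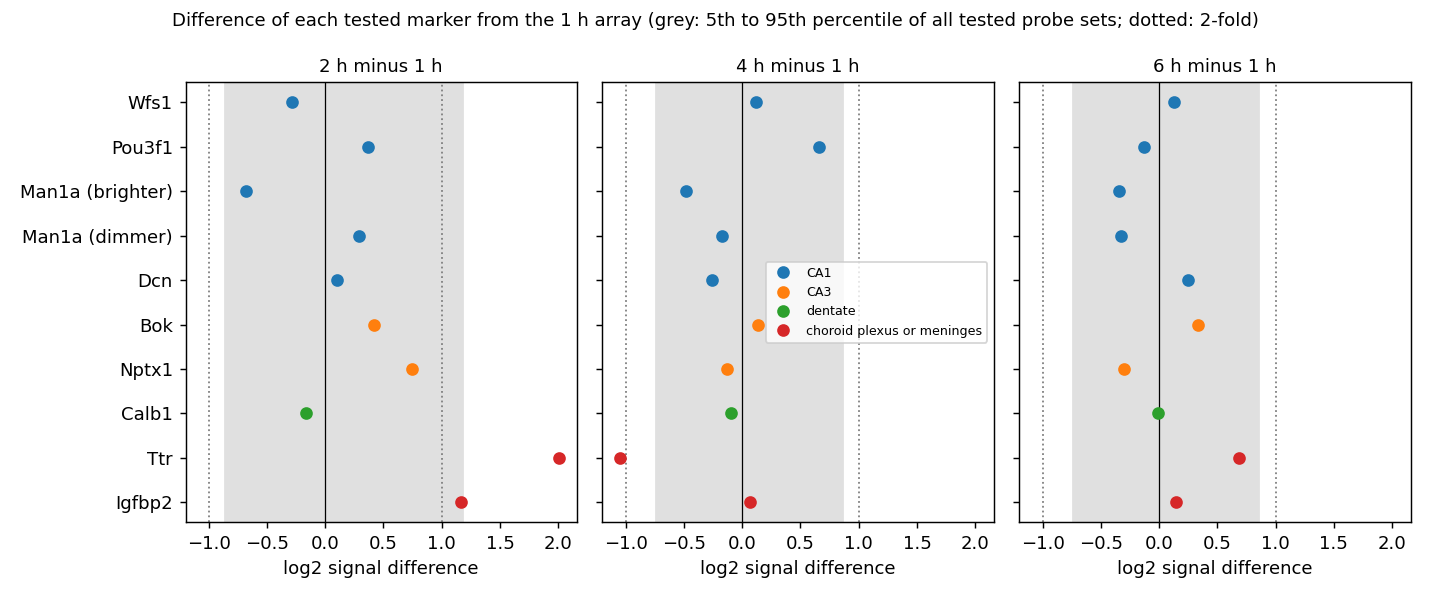
Log2 signal difference of each tested member probe set at 2, 4 and 6 h minus 1 h, coloured by region, with no replicate of any point. Grey bands run from the 5th to the 95th percentile of all 7237 tested probe sets (-0.86 to 1.19 at 2 h), and dotted lines mark 2-fold. Ttr lay at 2.01 at 2 h and -1.05 at 4 h, outside the band each time, while Igfbp2 lay at 1.16, inside it.

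The range over the 4 arrays, the highest floored signal over the lowest, sets each marker beside the rest of the array. It was at least 2-fold for 3 of the 10 tested member probe sets (Ttr, Igfbp2 and Nptx1), beside 22.6% of all tested probe sets, and the median was 1.57-fold over the members and 1.54-fold over all tested. Against tested probe sets of like brightness, in 3 equal classes of mean signal, Ttr ranged more widely than 99.8% of its class, Igfbp2 than 90.4% and Nptx1 than 86.5%. Calb1 ranged more widely than 5.35% of its class, Wfs1 than 43.3%, Bok than 43.6% and Dcn than 56.7%. Without the 2 h array, 1 of the 10, Ttr, still ranged over at least 2-fold, beside 12.7% of tested probe sets.

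**Figure D3:**
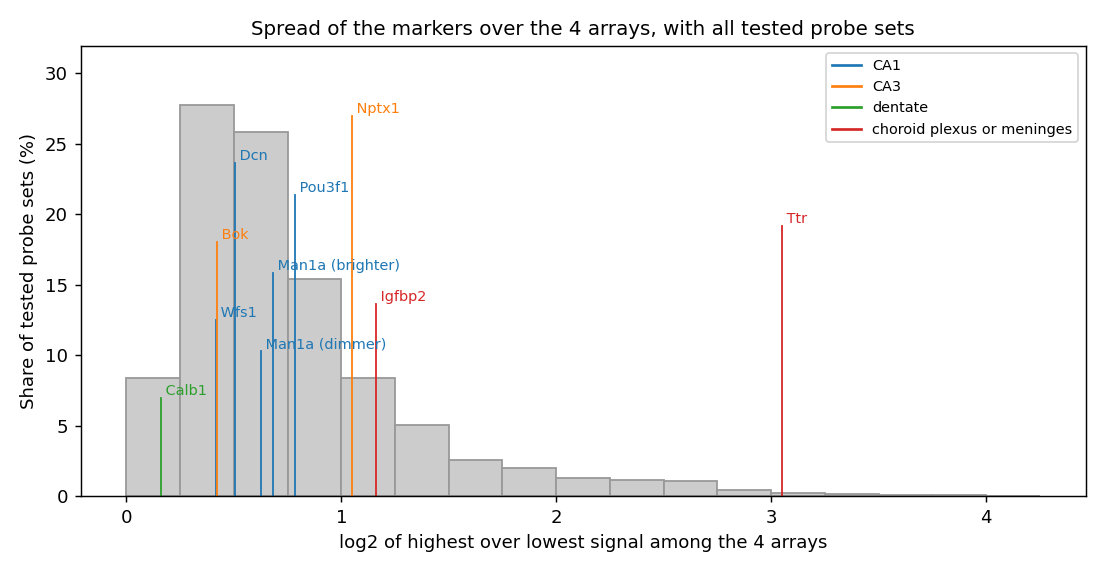
Share of the 7237 tested probe sets (%) by the log2 of their highest over lowest signal among the 4 arrays, in grey bars. Coloured lines give the 10 tested member probe sets at their own value on the horizontal axis, and line heights only keep the names apart. Calb1 lies at the low end at 1.12-fold and Ttr in the upper tail at 8.30-fold.

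Limma was used to test each probe set for a straight-line change of log2 signal with the hour over all 4 arrays. It called 0 of 10 member probe sets and 0% of the 7237 tested, with adjusted p = 0.9996 for each member. At an unadjusted p under 0.05 it called 0 members, beside 2.71% of all tested probe sets. The steepest member slope was that of Nptx1, -0.13 ± 0.08 log2 per hour (SE, 4 arrays), with an unadjusted p of 0.179 by limma. Slopes of the others were -0.10 for Ttr, with an SE of 0.22, -0.10 for the dimmer Man1a probe set, -0.07 for Igfbp2, -0.03 for the brighter Man1a probe set, -0.02 for Pou3f1, 0.01 for Calb1, 0.02 for Dcn, 0.03 for Bok and 0.05 for Wfs1. A straight line cannot judge a high or low value at 2 h alone.

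Other markers of the same tissues were set beside the members, each gene by its brightest probe set. Of 22 choroid plexus markers, 12 were on the array and 4 passed the filter, so most of that list was too dim to test. Limma called 0 of the 4, with adjusted p = 0.9996. At least 2-fold higher at 2 h than at 1 h were 2 of them, Ttr and Igfbp2, beside 6.92% of all tested probe sets. Kl, the co-receptor klotho, had 309, 177.5, 183 and 270.5 at 1, 2, 4 and 6 h, lowest at 2 h. Car12, a carbonic anhydrase, had 248, 198.5, 251 and 239.9, also lowest at 2 h. The other tested choroid plexus markers thus did not share the high 2 h signal of Ttr.

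The dim choroid plexus markers were mixed, with 3 of 8 highest at 2 h, 2 at 1 h, 2 at 4 h and 1 at 6 h. Col8a1, a short-chain collagen, had 107, 192, 53.7 and 103 at 1, 2, 4 and 6 h, an order of 2 h highest and 4 h lowest that Ttr also had. Summed over the 8 dim genes, the signal was 393, 753, 433 and 416 at 1, 2, 4 and 6 h, and over the 10 genes other than Ttr and Igfbp2 it was 951, 1129, 866.5 and 926. The 3 genes highest at 2 h, Col8a1, Calml4 and Slc4a5, carried most of the higher sum at 2 h: the other 5 dim genes summed to 258.5, 307, 273 and 277. Calml4, chosen after its values were seen as Slc4a5 was, gave 191.5 at 2 h, against 25.4, 92.8 and 30.3 at 1, 4 and 6 h. Folr1, the folate receptor of the plexus and also chosen afterwards, was instead highest at 6 h, with 55.9, 76.6, 39.5 and 164 at 1, 2, 4 and 6 h. Cldn2, a tight junction protein of the plexus, lay under the floor on all 4 arrays. It was counted above among those highest at 1 h, an order without meaning under the floor. In deposited signals 5 of the 12 genes were highest at 2 h, beside 27% of all probe sets, and 2 were lowest, beside 28.4%.

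**Figure D4:**
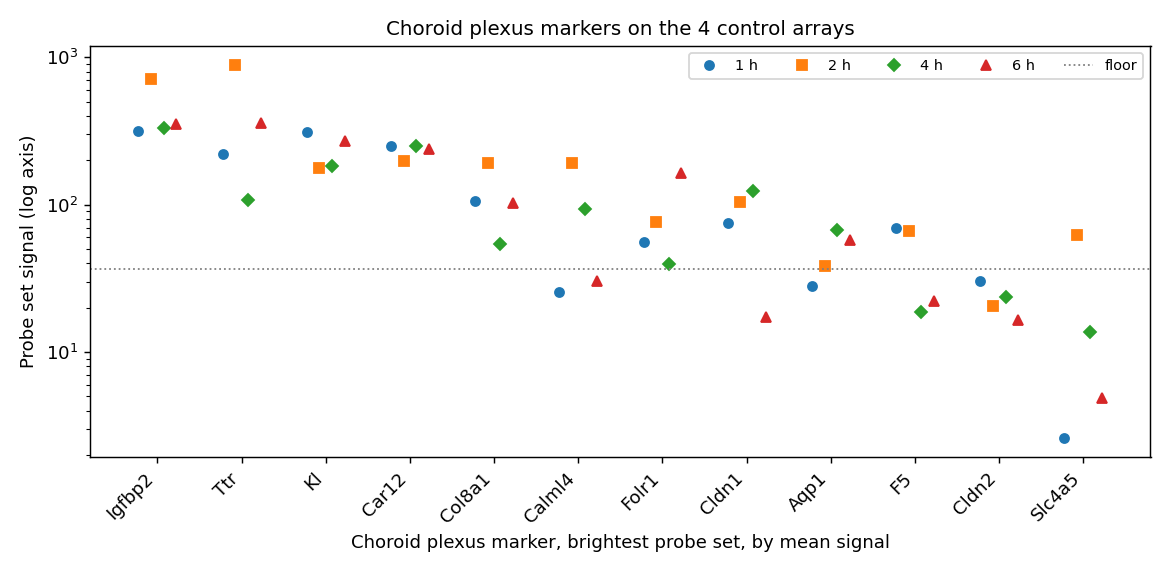
Deposited signal (log axis) of the 12 choroid plexus markers on the array, ordered by mean signal, with 1 point per hour and the floor of 36.8 dotted. Ttr and Igfbp2 stand highest at 2 h, Kl and Car12 stand lowest at 2 h, and most markers from Col8a1 on lie within a few-fold of the floor.

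Ependymal cells, which line the ventricle beside the plexus, had 4 of 8 markers on the array and all 4 passed the filter. Their median log2 differences from 1 h were 0.38, 0.43 and 0.40 at 2, 4 and 6 h, so a higher median was not particular to 2 h. Over all tested probe sets the medians were -0.00325, 0.016 and 0.020. At 2 h, 0 of the 4 were at least 2-fold higher than at 1 h, beside 6.92% of all tested probe sets. Foxj1, the factor that drives motile cilia, had 290, 457, 371 and 382 at 1, 2, 4 and 6 h, highest at 2 h. Mia had 156, 283.5, 363 and 206, highest at 4 h, where Ttr was lowest. Rarres2, the chemoattractant chemerin, had 236, 223, 335 and 441, and Pltp, a phospholipid transfer protein, had 728, 784, 778.5 and 591. Limma called 0 of the 4, with adjusted p = 0.9996.

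Of 20 meningeal markers, Dcn and Igfbp2 among them, 19 were on the array and 12 passed. The median log2 difference at 2 h against 1 h was 0.03, with 2 genes at least 2-fold higher and 1 lower, beside 6.92% and 3.29% of all tested probe sets. Limma called 0 of the 12, with a smallest adjusted p of 0.9996. Igf2, a growth factor of meninges and plexus, had 1310, 1356, 1243 and 1418 at 1, 2, 4 and 6 h on its brighter probe set, within 1.14-fold. It was at most 105 on the other. Col1a2, a collagen chain of fibroblasts, had 2048, 2414, 2452 and 2221 on its brighter probe set, within 1.20-fold, and was at most 104 on the other. Ptgds, which makes prostaglandin D2, had 3 probe sets with log2 differences of 0.44, -0.41 and -0.17 at 2 h against 1 h. Besides Igfbp2, the genes past 2-fold at 2 h were Islr, with 333.5 at 2 h against 108.5 at 1 h, and Mgp, with 104 at 2 h against 273 at 1 h, both named after their values were seen. On their brightest probe sets, Igf2, Col1a2 and Dcn varied by under 1.5-fold. Those of Igf2 and Col1a2 carry suffixes for shared or incomplete probes. Their other probe sets lay above the floor at 4 h alone for Igf2 and at 6 h alone for Col1a2. Igfbp2 varied by 2.24-fold, Islr by 3.07-fold and Mgp by 2.64-fold, so the list was mixed.

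The other markers of CA1 and CA2 were few. Of 8 CA1 genes listed, 5 were on the array and all passed, which were the members and Ccn3, a matricellular protein of CA1 pyramidal cells. Ccn3 had 4235, 3096, 4390 and 4548 at 1, 2, 4 and 6 h, lowest at 2 h as Wfs1 was. The median log2 difference of the 5 genes at 2 h against 1 h was -0.29, with 0 past 2-fold, beside 10.2% of all tested probe sets. Of 7 CA2 genes, 2 were on the array: Rgs14, a regulator of G protein signalling that is dense in CA2, had 5284, 4756, 6398 and 5296, and Pcp4 was too dim to test, with 30.4, 87.7, 15.8 and 52.1.

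Of 8 CA3 markers, 6 were on the array and 4 passed. Their median log2 difference at 2 h against 1 h was 0.32, with 0 past 2-fold, beside 10.2% of all tested probe sets. Spock1, a proteoglycan, had 762, 886, 814 and 592 at 1, 2, 4 and 6 h, highest at 2 h as Nptx1 and Bok were. Galnt3, which starts O-glycans, had 147, 137, 154 and 137, within 1.13-fold. Nectin3, an adhesion protein of CA3 synapses, was too dim to test, with 25, 68.4, 126.6 and 44.9 on its brighter probe set.

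Of 12 dentate markers, 8 were on the array and 5 passed, with a median log2 difference of -0.56 at 2 h against 1 h. Lct had 383, 224, 359.5 and 279.8 at 1, 2, 4 and 6 h, and Neurod1, a factor of granule cell differentiation, had 264, 164, 236 and 220.3. Dsp, the junction protein desmoplakin, had 133, 90.5, 168 and 196. These 3 and Calb1 were all lowest at 2 h, whereas Pdyn, the opioid precursor of mossy fibres, was lowest at 1 h, with 85.8, 216, 178 and 274. Pdyn was the 1 of the 5 past 2-fold at 2 h against 1 h, on its brighter probe set, beside 10.2% of all tested probe sets. Limma called 0 of the 5 (adjusted p = 0.9996). In deposited signals 5 of the 8 dentate genes were lowest at 2 h, beside 28.4% of all probe sets, and 1 was highest, beside 27%. The 5 include Prox1, whose signals at 2, 4 and 6 h all lay under the floor and so have no order.

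Lists of further cell types and regions had medians on either side of 0 at 2 h. The median log2 difference at 2 h against 1 h was 0.40 over 8 tested thalamus and habenula markers, 0.48 over 3 of subiculum and neocortex, 0.31 over 6 of microglia, 0.23 over 7 of oligodendrocytes, 0.21 over 8 of astrocytes, -0.09 over 10 of interneurons and -0.36 over 4 of endothelium and blood. Limma called 0 genes in each of these lists, with a smallest adjusted p of 0.9996. In deposited signals 6 of 8 oligodendrocyte genes were highest at 2 h, beside 27% of all probe sets. Summed over the 8, their signal was 22700.1, 23183, 29099 and 23615 at 1, 2, 4 and 6 h, highest at 4 h, but the brightest probe set of Mobp carried this order. The probe sets of Mobp did not agree. At 2 h against 1 h the brightest had a log2 difference of -0.31, and the others, all highest at 2 h, had 1.55, 2.22 and 0.83. Without Mobp, left out after its values were seen, the other 7 summed to 11609, 14258, 12383 and 11020.2, highest at 2 h. Summed signals of the 9 thalamus and habenula markers on the array were 2095, 2978, 2368 and 1920.3. The part of other cell types in the 2 h signals of Ttr, Igfbp2 and Nptx1 was not tested.

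The genes whose pattern over the 4 arrays lay nearest to each member's were found by the root-mean-square distance between centred log2 values, which describes 4 points and is no test. Nearest to Ttr came Tmem214 at 0.20 log2, Ctse at 0.21, Rpp14 at 0.28, Tmem129 at 0.29 and Slc12a5 at 0.30, and 1 of 6531 tested probe sets with a single gene symbol lay within 0.2. Near Igfbp2 lay Dlst, Klc1, Cct3, Atn1 and Csrp1, at 0.02 to 0.06, and 189 probe sets (2.89%) lay within 0.2. Near Nptx1 lay Ercc2, Stk39, Caml, Itfg1 and C1qa, at 0.02 to 0.05, with 250 (3.83%) within 0.2. Near Calb1, which hardly varied, lay Hdlbp, Uqcrq, Rufy1, Pbrm1 and Cbfb, with 2507 (38.4%) within 0.2. Few probe sets thus lay within 0.2 of the Ttr pattern, and more lay within 0.2 of that of Igfbp2. The distance was not scaled to the range, which was 8.30-fold for Ttr, 2.24-fold for Igfbp2 and 1.12-fold for Calb1. These counts therefore cannot separate the shape of a pattern from its range. None of the named neighbours of Ttr and Igfbp2 is in the choroid plexus list. Only tested probe sets could be neighbours, so the 8 dim genes of that list, Col8a1 among them, could not appear. Their absence therefore says nothing about a plexus pattern. For Prox1, under the floor on 3 arrays, no neighbours are given.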

How the data were processed

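Total RNA of 4 control CA1 samples was measured on 1 array each, grouped by the hour in the sample titles. The authors deposited linear intensity values, 1 for each probe set of an array, made with software that the labels do not name. Means after removal of 2% of values at each end differed by 0.00616% at most, so the arrays appear scaled to 1 mean, and values were used as deposited. No depth applies to arrays, and their number limits precision. Of 12488 probe sets, 66 were controls, 10833 had 1 symbol (10817 updated through gene identifiers), 396 several and 1193 none. Slopes were tested with limma 3.58.1 in R 4.3.3 (mean-dependent prior, 2 residual degrees of freedom, two-sided, Benjamini-Hochberg over 7237 probe sets at 0.05), checked on simulated data. Single hours were compared without a test, at 2-fold. Named were all member probe sets, up to 5 genes of highest mean signal per list for the 7 hippocampal, ventricular and meningeal lists, and 5 nearest patterns for Ttr, Igfbp2, Calb1 and Nptx1. The 7 other lists are given as medians, with counts or summed signals for some. The members and the 14 marker lists were chosen with earlier results of these data known. Alternatives covered scaling, floor, filter, probe sets, fold, reference array, time scale, prior and leaving out arrays. No scan date or slide is given, so no batch was tested, and no genome build, so no coordinates are given. Figures used matplotlib 3.10.9.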

Additional observations from a re-analysis of the deposited data

How the results depend on the processing

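The members called by limma stayed at 0 under every alternative run. Over all probe sets, leaving out 1 array gave 0 to 30 trend calls, the 30 without the 2 h array from 1 residual degree of freedom and none of them a member. Members that ranged over 2-fold numbered 1 to 3 when 1 array was left out, beside 12.3% to 16.9% of all tested probe sets. Without the 2 h array the count was 1 of 10, beside 12.3%. A 1.5-fold threshold gave 6 members for the range, in place of 3, where the median range over all tested probe sets was itself 1.54-fold. At 2, 4 and 6 h against 1 h it gave 4, 2 and 1 members, in place of 2, 1 and 0. Of all tested probe sets, 28.3%, 18.2% and 17.9% were past 1.5-fold at these hours. With 50 added to each signal before log2 in place of the floor, 0 members passed 2-fold at 4 h. Ttr then had a log2 difference of -0.79. Its signals at 1 and 4 h lay above the floor, and with the floor at the 10th or 30th percentile its difference stayed at -1.05. The smaller difference thus came from the added 50 and not from the missing floor. The count at 2 h was 2 against the 4 h array and 3, with Nptx1, against the 6 h array. These references were chosen after seeing the data, and no share over all tested probe sets is given for them. Slopes that changed sign, none of them called, did so mostly when 1 array was left out: their lowest and highest were -0.12 (without 1 h) and 0.21 (without 6 h) log2 per hour for Pou3f1, -0.12 (6 h) and 0.085 (1 h) for the brighter Man1a probe set, -0.10 (6 h) and 0.045 (4 h) for Dcn, -0.022 (1 h) and 0.065 (2 h) for Bok, -0.021 (6 h) and 0.037 (1 h) for Calb1, -0.52 (6 h) and 0.098 (2 h) for Ttr, and -0.26 (1 h) and 0.028 (2 h) for Igfbp2. Median centring turned the Calb1 slope to -0.014. The cause was not tested. With a stricter filter, 6.24%, 1.56% and 1.52% of all tested probe sets were past 2-fold at 2, 4 and 6 h, and with no filter 14.0%, 12.7% and 13.0%, in place of 10.2%, 6.2% and 6.54%. No paired analysis was possible because each hour has 1 sample.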
